A study of Homo sapiens with 12 samples.

Results

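The AP-1 transcription factor genes FOS, FOSB, FOSL1, FOSL2, JUN, JUNB, JUND and ATF3, together with FOSL2-AS1, the long noncoding RNA gene antisense to FOSL2, were followed across 4 groups of MDA-MB-231 cells. The 9 members were chosen by gene symbol from the 64252 genes counted in each library. MDA-MB-231 is an established human triple-negative breast cancer line. It was transfected by lipofection with a plasmid that carried wild-type Dicer or Dicer with mutation 1, mutation 2 or mutation 3. Dicer is the enzyme that trims microRNA precursors to their mature form, and the labels number the mutations without naming them. Each group held 3 libraries of poly(A)-selected RNA, 12 in all. All groups therefore share the cell line, the transfection and the cell's own Dicer gene. Untransfected cells and cells given an empty plasmid were not analysed here, and neither the promoter of the plasmid nor the time after transfection is given in the sources used here. Whether the libraries of a group are separate cultures is not stated in the labels, and p-values therefore reflect only the spread of these libraries, which may be technical. The comparisons ask how the level of each gene with a mutant Dicer differed from that with wild-type Dicer, and how it differed from mutant to mutant.

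AP-1 is a family of dimers rather than a single protein. JUN, JUNB and JUND pair through a leucine zipper with each other or with FOS, FOSB, FOSL1 (FRA1) or FOSL2 (FRA2), and the pair binds short palindromic DNA sites through an adjoining basic region. FOS proteins form DNA-binding dimers only with a partner such as a JUN protein, and ATF3 is a stress-induced relative that can also pair with JUN proteins. Several of these genes are immediate-early genes, switched on within minutes of a growth factor or stress signal through MAP kinases, and their messages are short-lived. Triple-negative breast cancer lines are known for a high level of FOSL1.

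Library totals ran from 13507341 to 17078273 counts. Wild-type replicate 1 stood apart from the other two wild-type libraries: genes of the mitochondrial genome took 2.08% of its counts against 7.83% and 7.92% in theirs, 3.34 to 3.46% with mutation 1, 6.39 to 7.67% with mutation 2 and 8.77 to 9.02% with mutation 3. A chi-square test of counts over genes gave 148.2 and 141.4 per degree of freedom between it and wild-type replicates 2 and 3, against 1.26 between those replicates and 1.30 to 3.51 within the mutant groups. Results against wild type are therefore also given without it where they change. DICER1, the gene whose product the plasmids carry, stood at 27.4, 45.2 and 47.4 CPM in wild type, 42.2 to 45.3 with mutation 1, 44.4 to 45.7 with mutation 2 and 38.8 to 40.1 with mutation 3. Its counts cannot separate the cell's own transcript from that of a plasmid, so they do not check the transfection. The markers of the line were present: EGFR, CD44 and vimentin (VIM) ran at 157 CPM or more in all 12 libraries and the summed level of the 6 markers listed as present was 4778 to 6582 CPM. Of the 5 markers listed as absent or low, 3 passed the filter on low counts described next, and their list summed to 89.6 to 154.4 CPM over the 12 libraries. ERBB2 ran at 68.4 to 111.5 CPM, so it was not absent. EPCAM was at 17.6, 5.64 and 4.59 CPM in wild type and 15.2 to 33.3 in the mutant libraries, and GATA3 was at 25.1, 7.71 and 9.25 CPM and 20.9 to 29.97. The estrogen receptor gene ESR1, chosen after its values were seen, was at most 0.653 CPM in any library.

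Levels are CPM (counts relative to the size of each library) with the TMM correction (trimmed mean of M-values) for differences in composition between libraries. A gene was called when its p in edgeR's quasi-likelihood test was under 0.05 after Benjamini-Hochberg adjustment over the 15094 genes kept by a filter on low counts. Fold changes are given on the log2 scale with their standard error (SE). The 6 comparisons share libraries, and the 3 against wild type share all their controls. All 9 members passed the filter, 7 of them with a level over the cutoff of 0.66 CPM in all 12 libraries. FOSL2-AS1 reached the cutoff in 0 wild-type, 3 mutation 1, 1 mutation 2 and 3 mutation 3 libraries, so it was tested only because of the groups in which it is high. FOSB reached it in 2, 3, 1 and 3 libraries.

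With mutation 1, FOS, FOSB, JUNB, ATF3, FOSL2 and FOSL2-AS1 rose against wild type and JUN fell, so 7 of 9 members were called, where 69.0% of all genes tested were called. With mutation 3, FOSL2-AS1, JUNB and ATF3 rose while JUN and JUND fell, 5 of 9 against 59.3% of all genes. With mutation 2, FOSL2, FOSL2-AS1 and JUN rose while JUNB and JUND fell, again 5 of 9, against 37.0% of all genes. The counts above and the medians below include FOSL2-AS1, which was tested only because of the groups in which it is high. By direction, 32.5% of all genes rose and 36.5% fell with mutation 1, 16.9% and 20.1% with mutation 2, and 28.1% and 31.2% with mutation 3. The members' median log2 change was 1.17, 0.20 and 0.54 for mutations 1, 2 and 3, beside -0.04, -0.01 and -0.01 over all genes tested. Without wild-type replicate 1, 6 rose and 2 fell with mutation 1, 3 rose and 4 fell with mutation 2, and 5 rose and 2 fell with mutation 3, and the medians were 1.00, -0.11 and 0.31. Over all genes in that fit, the medians were -0.04, -0.02 and -0.0001, and 10726 of 15806 were called with mutation 2. With only the 6 libraries compared in the fit, 3 of 8 tested members were called for mutation 2, beside 2589 of 14002 genes. In bulk RNA, fewer cells that express a gene and less of its RNA per cell cannot be told apart.

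**Figure D1:**
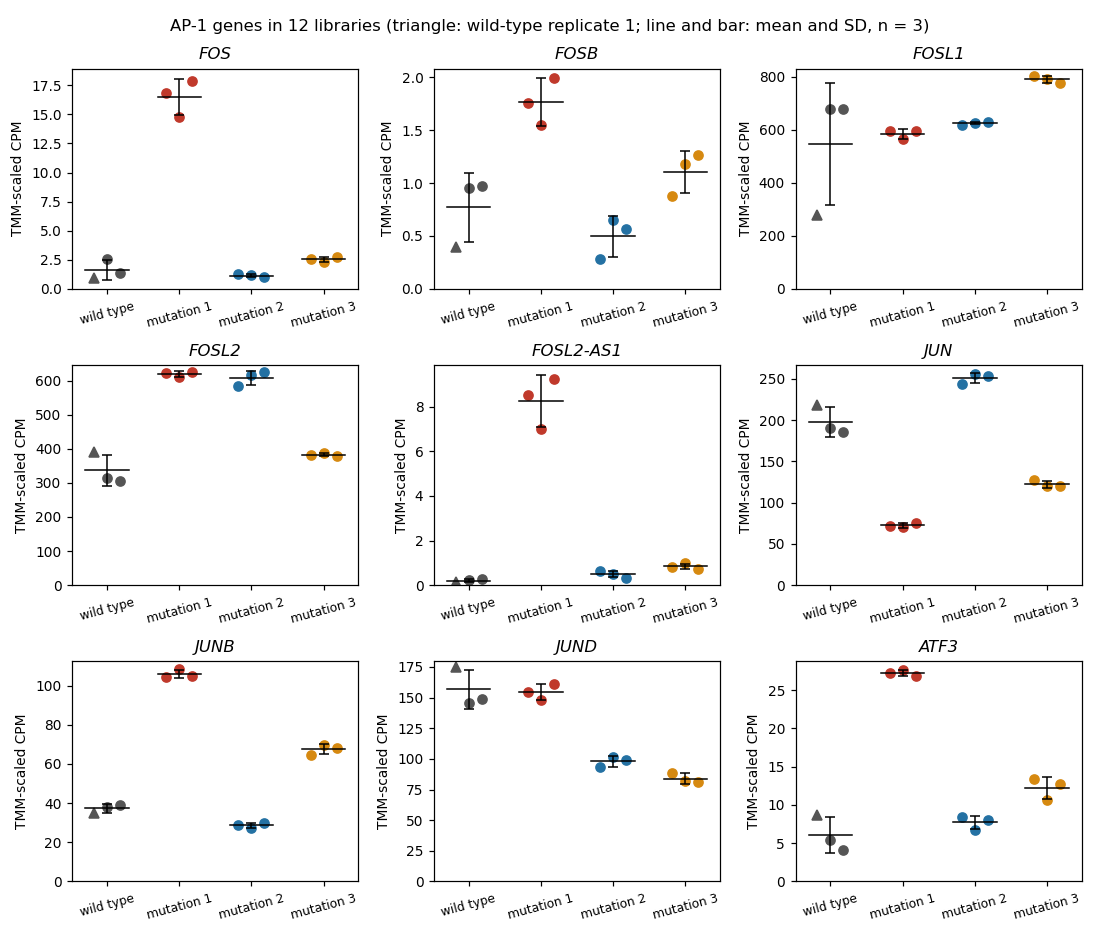
TMM-scaled CPM (vertical axes, linear from 0) of the 9 genes in each of the 12 libraries, grouped by the Dicer plasmid on the horizontal axis. Points are libraries, triangles mark wild-type replicate 1, and the line and bar give the mean and SD of 3 libraries. The 3 mutation 1 libraries lie above all others for FOS, FOSB, JUNB, ATF3 and FOSL2-AS1 and below all others for JUN.

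JUN, the founding JUN protein and a strong activator, was lower with mutations 1 and 3 and higher with mutation 2. Its level was 219, 190 and 185 CPM in the wild-type libraries, 72.1, 70.0 and 75.8 with mutation 1, 244, 256 and 253 with mutation 2, and 127, 120 and 120 with mutation 3. No group overlapped with another, and mutation 2 and mutation 1 marked the upper and lower ends. Against wild type, JUN fell by 1.45 on the log2 scale with mutation 1 (SE 0.071, adjusted p = 2.98e-08) and by 0.70 with mutation 3 (SE 0.069, adjusted p = 1.05e-05). With mutation 2 it rose by 0.34 (SE 0.069, adjusted p = 0.00299), a 1.27-fold difference that missed the threshold when only these 6 libraries were fitted (adjusted p = 0.0538). The mutants differed from each other as well: JUN was 3.46-fold lower with mutation 1 than with mutation 2, 1.68-fold lower with mutation 1 than with mutation 3, and 2.06-fold lower with mutation 3 than with mutation 2.

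JUNB, a JUN protein that activates weakly and can oppose JUN, took the opposite order. It stood at 34.98, 37.8 and 39.2 CPM in wild type, 105, 108 and 105 with mutation 1, 28.9, 27.2 and 29.9 with mutation 2, and 64.8, 69.6 and 68.2 with mutation 3. The groups again did not overlap, and the libraries of each group lay close together. JUNB rose by 1.50 with mutation 1 (SE 0.062, adjusted p = 1.00e-08) and by 0.85 with mutation 3 (SE 0.062, adjusted p = 1.03e-06), 2.84-fold and 1.81-fold. It fell by 0.38 with mutation 2 (SE 0.062, adjusted p = 0.000947). All 3 differences between mutants were called too, the widest a 3.69-fold higher level with mutation 1 than with mutation 2. Reads in 259 bp of JUNB exon also lie in an exon of HOOK2 on the other strand, and counting without strand cannot tell them apart, though HOOK2 held 5420 counts in all 12 libraries against 10611 for JUNB. JUN, JUNB and FOSL2-AS1 were the 3 members called in all 3 comparisons with wild type, as were 22.7% of all genes. FOSL2-AS1 was tested only because of the groups in which it is high, and its call with mutation 2 was lost in 13 alternative fits.

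JUND, which most cells express at a steady level, separated the groups along another line. Its level was 175, 146 and 149 CPM in wild type and 155, 148 and 161 with mutation 1, so these groups overlapped, and 93.3, 102 and 99.5 with mutation 2 and 88.8, 82.1 and 80.9 with mutation 3. Mutations 2 and 3 lay below all libraries of the other groups. JUND fell by 0.67 with mutation 2 (SE 0.078, adjusted p = 0.000122) and by 0.90 with mutation 3 (SE 0.078, adjusted p = 3.98e-06). With mutation 1 the difference from wild type was -0.02 (SE 0.077, adjusted p = 0.838), which became 0.02 with median-of-ratios scaling, -0.23 with library totals alone (adjusted p = 0.0257) and 0.07 without wild-type replicate 1. The 1.17-fold lower level with mutation 3 than with mutation 2 (adjusted p = 0.0309) did not hold without the low-count filter, or without any 1 of 8 single mutant libraries (adjusted p = 0.0523 to 0.135).

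The 3 JUN genes together changed in composition. Levels of different genes are compared here per kilobase of the gene's exons. JUN, JUNB and JUND made up 34.8 ± 0.71%, 12.9 ± 1.64% and 52.3 ± 1.25% (SD, n = 3) of the family's summed CPM per kb in wild type. With mutation 1 these shares were 12.7 ± 0.25%, 36.0 ± 1.35% and 51.3 ± 1.11% (SD, n = 3), so JUNB exceeded JUN. The family sum was 160.5 ± 12.5 CPM per kb in wild type and 161.7 ± 3.42 with mutation 1 (SD, n = 3), a difference smaller than the spread of the wild-type libraries. By library it was 174.9, 152.6 and 153.9 in wild type and 160.8, 158.8 and 165.5 with mutation 1. Wild-type replicate 1 thus lay above the mutation 1 libraries, and wild-type replicates 2 and 3 lay below them. With mutation 2, JUN held 50.9 ± 0.26% and JUNB 11.3 ± 0.68% of a sum of 139.4 ± 3.94 (SD, n = 3). With mutation 3, JUN, JUNB and JUND were closest to even, at 29.6 ± 0.50%, 31.8 ± 1.69% and 38.6 ± 1.21% of a sum of 116.6 ± 2.27 (SD, n = 3). The ratio of JUNB to JUN CPM was 0.190 ± 0.027 in wild type, 1.46 ± 0.083 with mutation 1, 0.114 ± 0.0069 with mutation 2 and 0.554 ± 0.038 with mutation 3 (SD, n = 3). Its lowest value with mutation 1 was 1.38, while the highest value in any library of the other groups was 0.582.

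**Figure D2:**
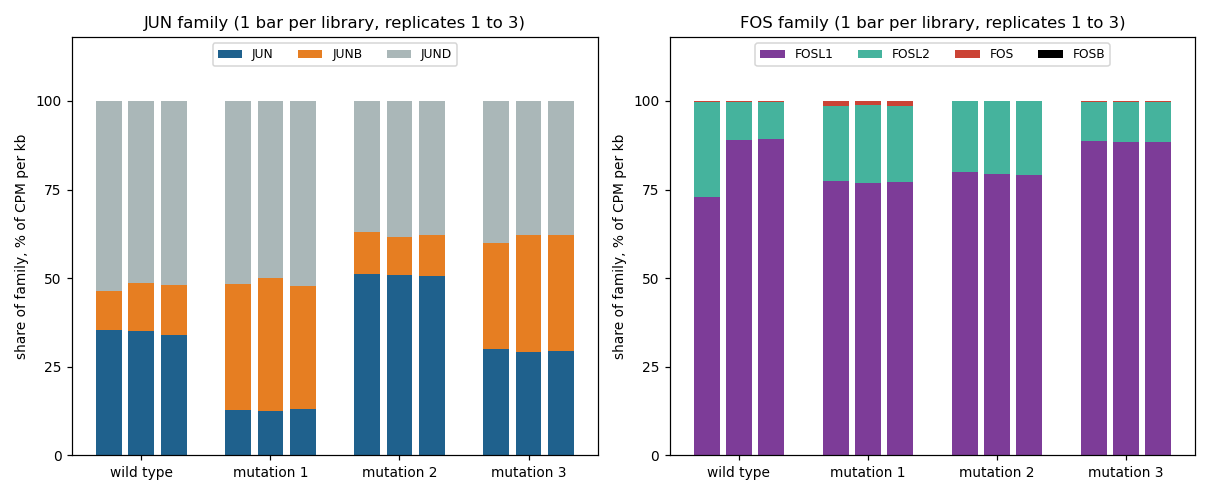
Share of each gene in the summed CPM per kb of the JUN family (left) and of the FOS family (right), in percent on the vertical axis, with 1 bar per library in the order of replicates 1 to 3. JUNB takes 34.8 to 37.5% of the JUN family with mutation 1 and 10.5 to 11.8% with mutation 2, and FOSL1 takes 73.0% of the FOS family in wild-type replicate 1 against 88.9% and 89.2% in wild-type replicates 2 and 3.

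FOS, the classic immediate-early partner of JUN, was low everywhere except with mutation 1. Its level was 0.919, 2.57 and 1.36 CPM in wild type, 16.8, 14.8 and 17.9 with mutation 1, 1.27, 1.17 and 1.02 with mutation 2, and 2.57, 2.29 and 2.74 with mutation 3. The mutation 1 libraries stood clear of all others, while the wild-type libraries overlapped with those of mutations 2 and 3. FOS rose 10.02-fold with mutation 1 (log2 3.33, SE 0.28, adjusted p = 1.73e-06), resting on 683 counts against 81 in wild type. It did not pass the test with mutation 2 (log2 -0.51, SE 0.32, adjusted p = 0.230) or with mutation 3 (log2 0.63, SE 0.29, adjusted p = 0.0885). Both of these turn on single wild-type libraries. Without wild-type replicate 1 the change with mutation 2 was -0.80 (adjusted p = 0.00740), without wild-type replicate 2 it was 0.0036 (adjusted p = 0.997), and without wild-type replicate 2 the change with mutation 3 was 1.14 (adjusted p = 0.00143). Between mutants, FOS was 14.3-fold higher with mutation 1 than with mutation 2, 6.5-fold higher than with mutation 3, and 2.20-fold higher with mutation 3 than with mutation 2 (adjusted p = 0.00950).

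FOSB, the other immediate-early FOS gene, had the same order at levels near the limit of detection. It was at 0.394, 0.9497 and 0.971 CPM in wild type, 1.76, 1.54 and 2.0 with mutation 1, 0.282, 0.649 and 0.564 with mutation 2, and 0.876, 1.18 and 1.26 with mutation 3. Only the mutation 1 group lay apart from all others. FOSB rose by 1.17 with mutation 1 (SE 0.35, adjusted p = 0.0109), from 38 counts in the 3 wild-type libraries to 73. Changes of -0.62 with mutation 2 (adjusted p = 0.245) and 0.50 with mutation 3 (adjusted p = 0.254) did not pass. The 1.60-fold difference between mutations 1 and 3 missed the threshold (adjusted p = 0.130) and passed it without wild-type replicate 1 (adjusted p = 0.0421). The 2.16-fold difference between mutations 3 and 2 passed (adjusted p = 0.0303) but not without the low-count filter or without mutation 2 replicate 1 or 3 or mutation 3 replicate 2 or 3 (adjusted p = 0.0600 to 0.106).

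Both FOS and JUNB, which rose with mutation 1, are shown by the reference bases just before their transcription starts, up to the first annotated exon. The stretches come from RefSeq promoter windows of GRCh38.p14 and are given 5′ to 3′ on the strand of the gene. In GENCODE v29 on hg38, FOS lies at chr14:75278774-75282230 (+), FOSB at chr19:45467995-45475179 (+), FOSL1 at chr11:65892049-65900573 (-), JUN at chr1:58780788-58784327 (-), JUNB at chr19:12791496-12793315 (+), JUND at chr19:18279760-18281622 (-) and ATF3 at chr1:212565334-212620777 (+).
FOS, chr14:75278578-75278773, + strand: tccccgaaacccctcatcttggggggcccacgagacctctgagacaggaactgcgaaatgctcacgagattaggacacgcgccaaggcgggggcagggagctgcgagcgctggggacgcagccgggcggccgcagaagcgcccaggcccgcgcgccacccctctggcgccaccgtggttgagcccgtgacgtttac
JUNB, chr19:12791236-12791485, + strand: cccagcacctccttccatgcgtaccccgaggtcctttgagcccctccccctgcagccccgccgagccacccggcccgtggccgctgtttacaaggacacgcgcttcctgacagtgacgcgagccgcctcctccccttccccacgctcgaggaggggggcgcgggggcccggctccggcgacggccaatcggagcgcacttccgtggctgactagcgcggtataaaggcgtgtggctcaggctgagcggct
Neither 300-base window (250 bases before the start and 50 after) holds the AP-1 consensus TGANTCA, the cyclic AMP response element TGACGTCA or a CArG box on either strand, so no base is in capitals. Only full matches inside these windows were sought, so sites farther upstream or with a changed base would be missed. Among 35116 such windows of the genome, 7.71%, 1.85% and 1.29% hold them. The windows are 64.7% (FOS) and 71.0% (JUNB) G and C, beside a median of 58.7% over all windows.

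ATF3, which is induced by many stresses and can repress as well as activate, rose with mutations 1 and 3. Its level was 8.73, 5.48 and 4.08 CPM in wild type, 27.2, 27.6 and 26.8 with mutation 1, 8.38, 6.75 and 8.07 with mutation 2, and 13.4, 10.6 and 12.7 with mutation 3. Wild type and mutation 2 overlapped, and the other groups lay above them without overlap. ATF3 rose by 2.16 with mutation 1 (SE 0.22, adjusted p = 8.03e-06) and by 1.01 with mutation 3 (SE 0.22, adjusted p = 0.00255), 4.47-fold and 2.01-fold. The change of 0.35 with mutation 2 (SE 0.22, adjusted p = 0.254) became 0.69 without wild-type replicate 1 (adjusted p = 1.27e-05). ATF3 was 3.52-fold higher with mutation 1 than with mutation 2 and 2.22-fold higher than with mutation 3. The 1.58-fold difference between mutations 3 and 2 (adjusted p = 0.0255) was lost with library totals as the only scaling (adjusted p = 0.0608) and without any 1 of 7 single mutant libraries (adjusted p = 0.0508 to 0.105).

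JUN and ATF3, which moved in opposite directions with mutations 1 and 3, hold the same octamer before a RefSeq start, TGACATCA, which was added to the search after their sequences had been seen and which 2.61% of all windows hold. JUND, lower with mutations 2 and 3, holds TGACGTCA, and FOSL2, higher with mutations 1 and 2, holds a TGANTCA match just after a start. The matches are in capitals with 10 reference bases on each side, and counted from the start they begin at base -67 for JUN, -123 for ATF3, -200 for JUND and 5 for FOSL2.
JUN, chr1:58784097-58784124, - strand: ggccttggggTGACATCAtgggctattt
ATF3, chr1:212565274-212565301, + strand: acctatgataTGACATCAtatggccact
JUND, chr19:18281805-18281832, - strand: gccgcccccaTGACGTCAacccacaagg
FOSL2, chr2:28392852-28392878, + strand: gccattgtagTGACTCAtctcgggcag
The JUN stretch lies inside an exon annotated by GENCODE, and the FOSL2 match lies in one too. These are matches of letters only, and binding was not measured. RefSeq windows were matched for 8 of the 9 members, the exception being FOSL1.

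FOSL1 was the most abundant member per kilobase in every group, and its call turned on wild-type replicate 1. It stood at 279, 677 and 678 CPM in wild type, 596, 564 and 595 with mutation 1, 619, 626 and 628 with mutation 2, and 803, 791 and 775 with mutation 3. Mutation 3 lay above all other libraries, and wild-type replicate 1 lay below all others by a wide margin. No comparison of FOSL1 was called, nor was the F test over the 4 groups (adjusted p = 0.227), the only one of the 9 members to miss it, where 83.0% of all genes passed. The change with mutation 3 was 0.54 (SE 0.25, adjusted p = 0.0879), that with mutation 1 was 0.10 (adjusted p = 0.727) and that with mutation 2 was 0.20 (adjusted p = 0.571). Without wild-type replicate 1 the change with mutation 3 was 0.23 (adjusted p = 6.57e-12). That with mutation 1 turned to -0.21 (adjusted p = 1.96e-10) and that with mutation 2 to -0.11 (adjusted p = 0.000412), so all 3 were then called. Leaving out wild-type replicate 2 or 3 in place of it brought the change with mutation 3 to 0.72 (adjusted p = 0.0463 and 0.0454). FOSL1 was 1.35-fold higher with mutation 3 than with mutation 1 and 1.26-fold higher than with mutation 2, with adjusted p of 0.191 and 0.279 over 12 libraries and 3.53e-25 and 6.91e-20 when only the 6 libraries compared were fitted.

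FOSL2, a FOS relative without the strong activation domain of FOS, was higher with mutations 1 and 2. Its level was 390, 313 and 307 CPM in wild type, 621, 611 and 626 with mutation 1, 584, 616 and 624 with mutation 2, and 383, 387 and 379 with mutation 3. The first 2 mutants overlapped with each other and lay above all other libraries, and the mutation 3 libraries lay within the range of wild type. FOSL2 rose by 0.88 with mutation 1 (SE 0.083, adjusted p = 4.02e-06) and by 0.85 with mutation 2 (SE 0.083, adjusted p = 4.32e-05). The difference between these mutants was 0.03 (SE 0.082, adjusted p = 0.786). With mutation 3 the change was 0.19 (SE 0.082, adjusted p = 0.0739), and 0.31 without wild-type replicate 1, which then passed (adjusted p = 8.77e-17). FOSL2 was 1.62-fold higher with mutation 1 and 1.59-fold higher with mutation 2 than with mutation 3.

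**Figure D3:**
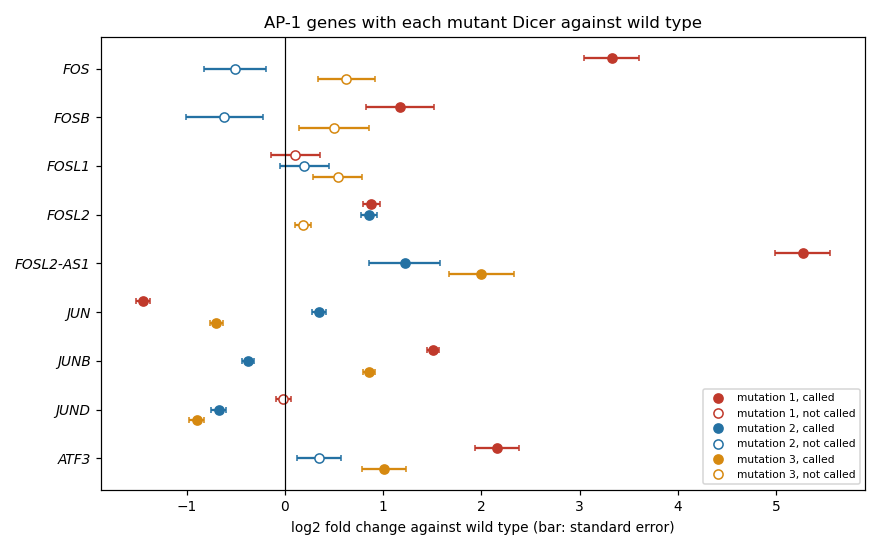
Log2 fold change against wild type (horizontal axis) of each of the 9 genes with mutation 1, 2 or 3, with bars for the standard error. Filled points passed an adjusted p under 0.05 in edgeR's quasi-likelihood test, and open points did not. JUN and JUNB lie on opposite sides of 0 with each mutation, and FOSL2-AS1 with mutation 1 lies farthest out at 5.27.

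FOSL2-AS1 carried the widest change of the 9 members. Its counts were 2, 4 and 4 in the wild-type libraries, 121, 104 and 116 with mutation 1, 9, 8 and 6 with mutation 2, and 13, 15 and 10 with mutation 3, equal to 0.131 to 0.259, 6.98 to 9.26, 0.339 to 0.634 and 0.741 to 0.980 CPM. Mutation 1 stood far above the other groups, and mutations 2 and 3 lay above wild type at levels of few counts. FOSL2-AS1 passed the low-count filter only through libraries in which it is high, so its adjusted p-values are not independent support. The rise with mutation 1 was 5.27 (SE 0.28, adjusted p = 5.99e-08), and the ratio of summed counts after scaling was 39.8, with an exact 95% interval of 21.4 to 83.8 that covers counting error only. With mutation 3 it rose by 2.0 (SE 0.33, adjusted p = 0.000417), a ratio of 4.13 with an interval of 2.02 to 9.29. The rise of 1.22 with mutation 2 (SE 0.36, adjusted p = 0.0487) lost its call without the low-count filter, in DESeq2 and without each of 11 single libraries (adjusted p = 0.0522 to 0.173), so it rests on the threshold. The difference between mutations 3 and 2 was 0.78 (adjusted p = 0.0581), and it passed without mutation 2 replicate 1 (adjusted p = 0.0456).

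FOSL2-AS1 and FOSL2 overlap head to head on chromosome 2 without sharing exon bases. In GENCODE v29 on hg38, FOSL2 runs on the + strand at chr2:28392448-28417312 and FOSL2-AS1 on the - strand at chr2:28384409-28394672. The first FOSL2-AS1 exon lies 2.10 to 2.22 kb inside FOSL2, in an intron, and the others span -8.04 to -4.54 kb from its start. A second small gene, ENSG00000270640, is annotated on the + strand in an intron of FOSL2, 4.37 to 4.66 kb from its start, at chr2:28396815-28397110. It was singled out after its values were seen. Its counts were 2, 3 and 0 in wild type, 116, 138 and 105 with mutation 1, 3, 5 and 4 with mutation 2, and 5, 6 and 5 with mutation 3. It passed the low-count filter only through the mutation 1 libraries, since its level in the other 9 was at most 0.392 CPM, so no test of it is given. Against wild type, the ratio of its summed counts after scaling was 83.8, 2.46 and 3.47 for mutations 1, 2 and 3. The exact 95% intervals, which cover counting error only, were 35.6 to 259.8, 0.808 to 8.93 and 1.22 to 12.1. The FOSL2 gene itself rose 1.84-fold with mutation 1 and 1.81-fold with mutation 2. Because the counts take no account of strand, reads of unspliced FOSL2 RNA, of FOSL2-AS1 and of ENSG00000270640 cannot be told apart where they share bases. The FOSL2-AS1 stretch before its RefSeq start is shown because this gene changed most. It holds none of the searched motifs.
FOSL2-AS1, chr2:28394673-28394922, - strand: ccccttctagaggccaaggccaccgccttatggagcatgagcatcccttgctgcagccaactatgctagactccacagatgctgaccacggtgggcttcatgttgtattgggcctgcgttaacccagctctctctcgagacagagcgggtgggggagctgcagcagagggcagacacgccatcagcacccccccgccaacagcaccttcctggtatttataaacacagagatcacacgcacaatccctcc

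**Figure D4:**
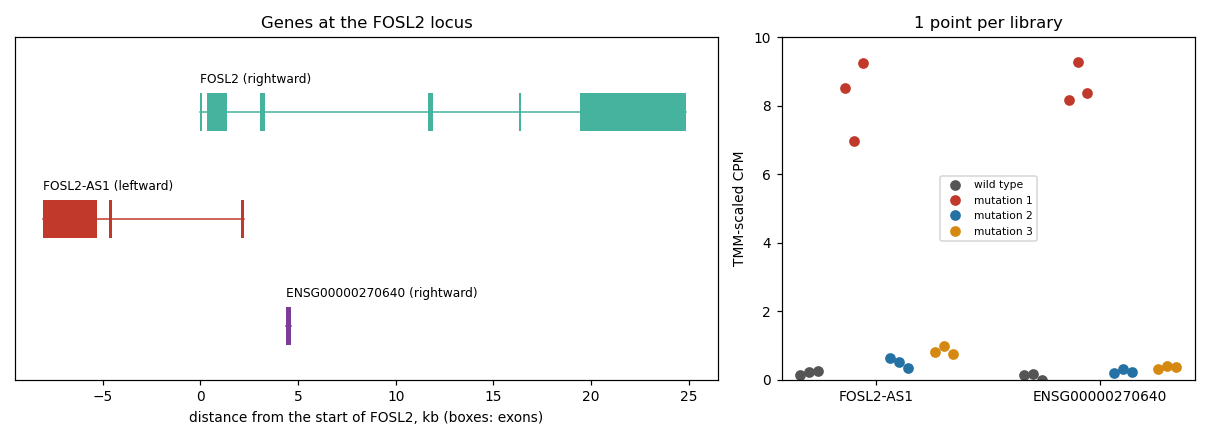
Left, exons (boxes) of FOSL2, FOSL2-AS1 and ENSG00000270640 by distance in kb from the start of FOSL2. Right, TMM-scaled CPM of FOSL2-AS1 and ENSG00000270640 in each of the 12 libraries, linear from 0. Both genes lie at 6.98 CPM or higher in all 3 mutation 1 libraries and at 0.980 CPM or lower in the other 9.

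Ranked per kilobase, the order of the members changed between groups. In wild type it was FOSL1 at 288.7 ± 121.8 CPM per kb, JUND at 84.1 ± 8.60, JUN at 55.9 ± 5.12, FOSL2 at 47.1 ± 6.44, JUNB at 20.5 ± 1.18, ATF3 at 1.51 ± 0.59, FOS at 0.499 ± 0.264, FOSB at 0.139 ± 0.059 and FOSL2-AS1 at 0.0681 ± 0.022 (SD, n = 3). Of these neighbours, JUN and FOSL2 overlapped in their libraries, as did FOSB and FOSL2-AS1. With mutation 1 FOSL2 and JUND overlapped, at 86.5 ± 1.11 and 83.0 ± 3.44 CPM per kb (SD, n = 3), and JUNB at 58.2 ± 1.16 passed JUN at 20.5 ± 0.84. With mutation 2 FOSL2 and JUN, at 84.9 ± 2.96 and 70.9 ± 1.80 CPM per kb (SD, n = 3), both lay above JUND at 52.7 ± 2.38. With mutation 3 FOSL2, JUND, JUNB and JUN ran from 53.5 ± 0.55 to 34.5 ± 1.19 CPM per kb (SD, n = 3), and JUNB and JUN overlapped. FOS stayed a small part of the FOS family, 0.147 ± 0.047% in wild type and 1.27 ± 0.089% with mutation 1 (SD, n = 3).

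The direct contrasts between mutants called 7 of 9 members between mutations 1 and 2 (65.4% of all genes), 7 of 9 between mutations 1 and 3 (42.8%) and 7 of 9 between mutations 3 and 2 (52.9%). The last of these counts fell to 4 without mutation 2 replicate 3 and to 4 without mutation 3 replicate 3. JUN, JUNB, JUND, FOS and ATF3 were called in all 3 of these contrasts. The share of all genes called in all 3 was not computed, so this count has no scale beside it. The calls of JUND and ATF3 between mutations 3 and 2 were lost in 9 and 8 alternative fits. FOS, JUNB, ATF3 and JUND were highest with mutation 1 among the mutants, and JUN was lowest. Mutation 3 lay between the other mutants for JUN, JUNB, FOS and ATF3, and each step was called with all 12 libraries.

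Some transcripts of the members carry sites that match microRNA seeds. Dicer makes microRNAs, which bind through the seed, bases 2 to 8, mostly in 3′ untranslated regions. Seeds of 7 microRNAs, chosen with the values of these data known, were searched in 1 GENCODE transcript per gene, and microRNA levels were not analysed here. MicroRNAs with a match in more than 1 member were miR-155, miR-221 and miR-200b, given as mature RefSeq sequences with the seed in capitals.
hsa-miR-155-5p: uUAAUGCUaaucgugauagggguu
hsa-miR-221-3p: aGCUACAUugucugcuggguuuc
hsa-miR-200b-3p: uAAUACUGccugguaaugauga
The sites follow with the matching bases in capitals. FOS and ATF3 carry matches to miR-155 and miR-221, FOSL2 to miR-155 and miR-200b, and JUN to miR-200b.
FOS with miR-155: agtcttctcatAGCATTAactaatctatt
FOSL2 with miR-155: tagaaactgatAGCATTAaaatactccgt
ATF3 with miR-155: acccaggctttAGCATTAttggatgtcaa
FOS with miR-221: ctcttccggagATGTAGCaaaacgcatgg
ATF3 with miR-221: ttgtttttgtcATGTAGCtgttttaagaa
FOSL2 with miR-200b: atacaagcctaCAGTATTtgcactaaaga
JUN with miR-200b: tcgatctcattCAGTATTaaaggggggag
Among untranslated regions of similar length, 4.71%, 30.8% and 6.85% hold the miR-155 match for FOS, FOSL2 and ATF3, 4.04% and 5.96% the miR-221 match for FOS and ATF3, and 41.5% and 12.2% the miR-200b match for FOSL2 and JUN. FOS also holds a miR-29a match and FOSL2 matches to miR-21 and miR-17, while FOSB, FOSL1, JUNB and JUND hold none of the 7. In regions of similar length, 8.75% hold the miR-29a match for FOS. For FOSL2, 25.6% hold the miR-21 match and 54.2% the miR-17 match. The AU-rich pentamer ATTTA, a mark of short-lived messages, occurs 5 times in FOS, 9 times in the long region of FOSL2, 3 times each in FOSB, JUN and ATF3, 2 times in JUNB and 1 time each in FOSL1 and JUND. Most regions of similar length hold it: 68.8% for FOS, 98.5% for FOSL2, 91.5% for FOSB, 81.2% for JUN and 80.6% for ATF3. The shares were 54.0% for JUNB, 62.3% for FOSL1 and 63.0% for JUND, so its presence alone does not set the members apart. MIR222HG, the host transcript of miR-221, was at 6.89, 16.3 and 15.1 CPM in wild type and 23.0 to 32.5 in the 9 mutant libraries, and rose with all 3 mutations (log2 1.25, 0.91 and 1.22). The host transcript of miR-155, MIR155HG, had a count of 0 in every library, where 3 counts would equal 0.167 to 0.197 CPM in the wild-type libraries.

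Genes that act with AP-1 were read from lists chosen with earlier results of these data known, and their named members have the lowest adjusted p of the F test in each list. Of 15 tested partners in the basic leucine zipper family, 6 rose and 4 fell with mutation 1, 2 rose and 5 fell with mutation 2, and 6 rose and 6 fell with mutation 3. For this list and those below, the shares over all genes tested were 32.5% up and 36.5% down with mutation 1. They were 16.9% and 20.1% with mutation 2, and 28.1% and 31.2% with mutation 3. MAFF, a small MAF protein, rose from 95.4 ± 7.63 CPM in wild type to 458.9 ± 21.7 with mutation 1 and 227.6 ± 10.6 with mutation 3 (SD, n = 3), and was at 92.5 ± 2.94 with mutation 2. JDP2, a repressor that pairs with JUN, fell from 19.2 ± 3.78 CPM to 3.69 ± 0.35, 12.7 ± 1.27 and 3.24 ± 0.58 with mutations 1, 2 and 3 (SD, n = 3). NFE2L2 (NRF2), an oxidative stress factor, rose by 0.74 with mutation 1 and by 0.57 with mutation 3. BATF, a partner of JUN proteins in lymphocytes singled out after its values were seen, was at 1.38, 4.19 and 3.88 CPM in wild type and had a count of 0 in all 9 mutant libraries, in which 3 counts would equal at most 0.239 CPM. It passed the low-count filter only through the wild-type libraries and is among the falls counted above.

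Immediate-early genes outside AP-1 moved in both directions: of 16 tested, 8 rose and 4 fell with mutation 1 (median log2 change 1.33), 2 rose and 4 fell with mutation 2 (median -0.44) and 8 rose and 2 fell with mutation 3 (median 0.41). Of 18 tested without wild-type replicate 1, 10 rose and 6 fell with mutation 1 (median 0.87). In that fit, 5 rose and 11 fell with mutation 2 (median -0.67), and 10 rose and 5 fell with mutation 3 (median 0.33). Over all genes in the same fit, 10726 of 15806 tested were called with mutation 2. DUSP1, a phosphatase that switches MAP kinases off, stood at 12.9 ± 1.84 CPM in wild type, 252.7 ± 4.47 with mutation 1, 9.39 ± 0.72 with mutation 2 and 22.9 ± 1.45 with mutation 3 (SD, n = 3), and was called in all 3 comparisons. KLF6, a zinc finger factor, rose by 1.91 with mutation 1 and by 0.29 with mutation 3. MYC rose by 1.64, 0.68 and 0.90 with mutations 1, 2 and 3. EGR1, singled out after its values were seen, fell by 1.66 with mutation 1 (adjusted p = 0.00905) while FOS rose, though both are immediate-early genes. Its level was 1.44, 7.93 and 6.73 CPM in wild type and 1.69, 1.88 and 1.52 with mutation 1. The groups overlapped, since wild-type replicate 1 lay below the mutation 1 libraries. Of 21 upstream kinases and serum response factors, 7 rose and 6 fell with mutation 1, 7 and 3 with mutation 2, and 8 and 6 with mutation 3. MAPK3 (ERK1) rose by 1.32 with mutation 1 and 0.61 with mutation 3 and fell by 0.30 with mutation 2, BRAF rose with all 3 mutations (log2 1.89, 0.55 and 1.25), and MAP2K4, a kinase upstream of JNK, fell by 1.35 with mutation 1 and 0.42 with mutation 3.

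Known AP-1 target genes did not share a direction. Of 20 tested, 12 rose and 5 fell with mutation 1 (median 0.69), 4 rose and 6 fell with mutation 2 (median 0.12), and 7 rose and 10 fell with mutation 3 (median -0.23). Without wild-type replicate 1 the balance moved, to 13 up and 6 down with mutation 1 (median 0.76), 11 up and 7 down with mutation 2 (median 0.26), and 9 up and 9 down with mutation 3 (median -0.0069). IL11, a cytokine, fell with all 3 mutations, from 55.4 ± 2.82 CPM to 34.4 ± 1.14, 7.24 ± 0.57 and 9.95 ± 0.43 (SD, n = 3). TGFB1, the growth factor TGF-beta 1, rose by 1.00 with mutation 1 and fell by 0.91 with mutation 2 and 0.17 with mutation 3. TIMP1, a metalloproteinase inhibitor, rose by 0.76 with mutation 1 and fell by 0.34 and 0.21 with mutations 2 and 3. MMP1, the collagenase often used as an AP-1 reporter and singled out after its values were seen, was at 1.84, 10.3 and 9.96 CPM in wild type, 0.211, 0.134 and 0 with mutation 1, 2.60, 2.85 and 2.54 with mutation 2, and 0.939, 0.915 and 0.889 with mutation 3. It fell with all 3 mutations (adjusted p = 5.82e-05, 0.0425 and 0.00102), and wild-type replicate 1 lay below the mutation 2 libraries. Without the low-count filter or without mutation 3 replicate 3 the 17 calls with mutation 3 became 10 and 11. Without wild-type replicate 1 the calls with mutation 2 rose from 10 to 18 for these targets, from 6 to 16 for the immediate-early list, from 7 to 12 for the partners and from 10 to 16 for the kinases. With only the 6 libraries compared in the fit, those calls with mutation 2 were 6, 2, 2 and 2 in the same order of lists, and the targets had 9 calls among 18 tested with mutation 3. Without mutation 2 replicate 3 the immediate-early list had 3 calls with mutation 2. Over all genes, calls with mutation 2 moved too: 5588 of 15094 tested with all 12 libraries, 10726 of 15806 without wild-type replicate 1. With only the 6 libraries compared they were 2589 of 14002.

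**Figure D5:**
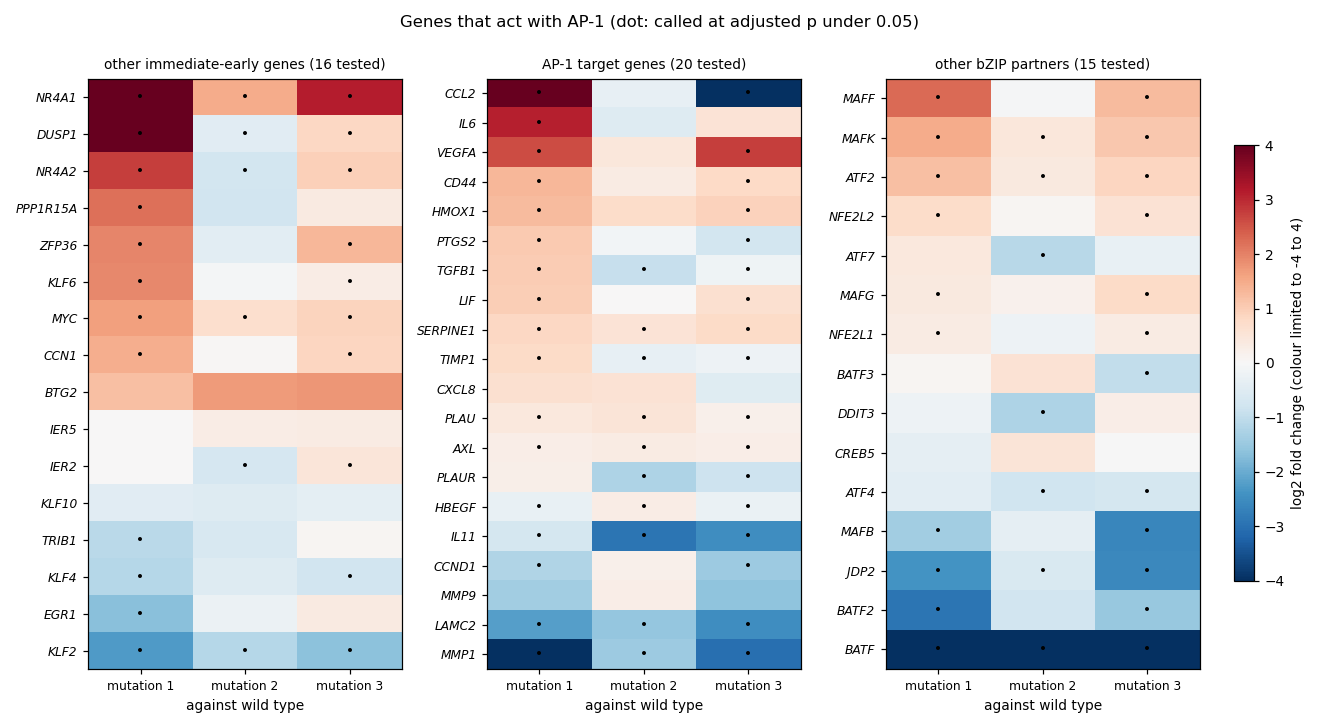
Log2 fold change against wild type (colour, limited to -4 to 4) for the tested genes of 3 lists: 16 other immediate-early genes, 20 AP-1 target genes and 15 basic leucine zipper partners. Columns are mutations 1, 2 and 3, and dots mark an adjusted p under 0.05. Of the targets, 12 rose and 5 fell with mutation 1, where 32.5% and 36.5% of all genes tested did.

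Each member was set beside the gene with the most similar profile, by the root mean square difference of centred log2 CPM over the 12 libraries among genes whose mean level reached 5 CPM. For FOS this was NR4A2, an immediate-early nuclear receptor, with a difference of 0.35 and levels of 3.10 ± 0.70, 21.2 ± 1.35, 1.88 ± 0.49 and 5.97 ± 0.38 CPM in wild type and mutations 1 to 3 (SD, n = 3). For JUNB it was TMEM39A (difference 0.074) and for JUN it was ZNF180 (0.10). FOSL1 lay closest to WDR19 (0.079), FOSL2 to BCKDHB (0.11), JUND to ZBED5-AS1 (0.12), ATF3 to CPD (0.12), FOSB to KLHL17 (0.15) and FOSL2-AS1 to MAP2 (0.28). FOSL1 and WDR19 both varied most in wild type, at 544.7 ± 229.9 and 31.0 ± 12.2 CPM (SD, n = 3), so their likeness rests largely on that group. The median difference from all genes compared was 1.39 for FOS and 0.80 for JUNB. Among the members it ran from 0.54 for FOSL1 to 1.45 for FOSL2-AS1.

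Other measures moved with the groups. Among the markers of other cell types, CD3E and DCN had a count of 0 in all 12 libraries, and the summed level of the list was 19.3 to 23.4 CPM in wild type, 23.2 to 27.4 with mutation 1, 6.97 to 9.93 with mutation 2 and 6.97 to 8.33 with mutation 3. Most of it came from CD14 and PECAM1, which did not move together. CD14, a monocyte coreceptor, was at 20.5, 3.63 and 3.43 CPM in wild type, 27.02, 22.2 and 25.9 with mutation 1, 5.98, 9.41 and 7.22 with mutation 2, and 7.13, 6.40 and 6.002 with mutation 3. PECAM1, an endothelial adhesion gene, was at 2.76, 17.1 and 15.3 CPM in wild type and 0.352 to 0.915 in the 9 mutant libraries. CD14 rose with mutation 1 (adjusted p = 0.0345) and PECAM1 fell with all 3 mutations, so the similar sums in wild type and mutation 1 hold different genes. Of 8 heat shock genes listed, HSPA1A and HSPA1B had a count of 0 in all 12 libraries and add nothing to the sum. Reads with a mapping quality under 10 were not counted, so these counts do not show that HSPA1A and HSPA1B are silent. The summed level of the heat shock list was 3753 to 4044 CPM in wild type, 5550 to 5587 with mutation 1, 3751 to 3824 with mutation 2 and 2368 to 2411 with mutation 3. The part of these, and of the mitochondrial share, in the differences of the AP-1 genes was not tested.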

How the data were processed

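RNA-seq libraries of the 4 groups, 3 each, were analysed from raw counts of read pairs per gene, as the authors deposited them. Per the file headers, the counts came from featureCounts 2.0.6, without strand, over exons summed by gene ID, at a mapping quality of at least 10 on hg38. Per the submitters' processing notes, STAR, SAMtools, DESeq2, cutadapt 1.9.1 and FastQC 0.11.8 were used.

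All 12 libraries entered 1 edgeR 4.0.16 quasi-likelihood fit (R 4.3.3, TMM scaling, robust, no covariates, 8 residual degrees of freedom). The filter (filterByExpr, 10 counts at least and 15 in total) kept 15094 of 64252 genes, over which p-values were adjusted by Benjamini-Hochberg, with calls under 0.05. SE is the ratio of the log2 fold change to the root of F. The fit was tested on simulated data in which every gene had the same spread between libraries. No simulated library stood apart as wild-type replicate 1 does, so that case was not covered.

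The members and lists were chosen with earlier results of these data known. All 9 members were named, and of each other list the 3 genes with the lowest F test p. Profiles were compared as log2(CPM + 0.5). Per-kilobase levels use the union of GENCODE v29 exons, which counts isoforms these cells may not use. Alternatives were median-of-ratios scaling, library totals alone, no filter, DESeq2 1.42.0, only the groups compared, and leaving out each library. The promoter search found windows for 8 members. One listed marker of other cell types is not reported here.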

Additional observations from a re-analysis of the deposited data

How the results depend on the processing

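Over the alternatives, 854 member values kept their direction and side of the threshold, 36 lost a call, 17 gained one and 10 changed sign. The sign changes were FOS in mutation 2 against wild type without wild-type replicate 2 (0.0036, range without single libraries -0.80 to 0.0036), FOSL1 in mutation 1 against wild type with library totals alone (-0.11) and without wild-type replicate 1 (range -0.21 to 0.29), FOSL1 in mutation 2 against wild type without wild-type replicate 1 (range -0.11 to 0.38), FOSL2 between mutations 1 and 2 with library totals alone (-0.18) and without mutation 2 replicate 1 (range -0.0036 to 0.0488), and JUND in mutation 1 against wild type with median-of-ratios scaling (0.0175), in DESeq2 (0.0176), without mutation 1 replicate 2 (0.0175) and without wild-type replicate 1 (range -0.0724 to 0.0718). None of these values was called in the fit reported. Leaving out single libraries, the members called numbered 7 to 8 for mutation 1, 4 to 7 for mutation 2 and 5 to 7 for mutation 3 against wild type, 7 to 8 between mutations 1 and 2, 7 to 9 between mutations 1 and 3, 4 to 8 between mutations 3 and 2, and 8 to 9 in the F test. With only the groups compared, mutation 2 had 3 members called of 8 tested, since FOSL2-AS1 failed the filter there. Over all genes, 5588 were called for mutation 2 against wild type, but 2589 with only those groups fitted and 10726 without wild-type replicate 1, and 6454 between mutations 1 and 3, but 10073 and 10521. Library totals alone moved the median log2 change of all genes to -0.25, -0.01 and -0.14 for mutations 1, 2 and 3 against wild type. No paired analysis was possible because only the wild-type labels carry replicate numbers. Depth limits FOSB and FOSL2-AS1, whose wild-type libraries held 38 and 10 counts in all. Causes of these changes were not tested.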

Other observations

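Genes that act on AP-1 proteins and messages moved in both directions. For scale in these lists, 69.0%, 37.0% and 59.3% of all genes tested were called with mutations 1, 2 and 3 against wild type. With mutation 2, 10726 of 15806 genes tested were called without wild-type replicate 1, and 2589 of 14002 with only the 6 libraries compared. Of 7 genes for turnover of AP-1 proteins, 3 rose and 3 fell with mutation 1, 2 rose and 0 fell with mutation 2 (6 called without wild-type replicate 1, and 1 without any other single library except mutation 2 replicate 3), and 2 rose and 3 fell with mutation 3. The calls with mutation 2 in this list, and those of the heat shock genes given further on, were lost with only the 6 libraries compared in the fit. The ubiquitin ligase ITCH, which marks JUN proteins for destruction, rose from 78.5 ± 4.06 CPM in wild type to 173.8 ± 3.51, 89.4 ± 3.06 and 124.2 ± 2.89 with mutations 1, 2 and 3 (SD, n = 3). COP1, another ligase for JUN, fell by 0.75 with mutation 1 and 0.41 with mutation 3. DDB1, an adaptor of the same kind of ligase, rose by 0.36 with mutation 1.

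Of 10 genes for decay of AU-rich messages, 5 rose and 3 fell with mutation 1, 2 rose and 1 fell with mutation 2 (9 called without wild-type replicate 1), and 4 rose and 4 fell with mutation 3. ZFP36 (tristetraprolin), which binds ATTTA elements, rose from 10.96 ± 3.41 CPM to 42.9 ± 1.29 with mutation 1 and 27.8 ± 0.78 with mutation 3 (SD, n = 3). CNOT1, the scaffold of the main deadenylase, rose with all 3 mutations (log2 0.61, 0.58 and 1.02), and KHSRP fell by 0.45 with mutation 3.

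Of 6 tested heat shock genes, 3 rose and 3 fell with mutation 1, 1 rose and 1 fell with mutation 2 (5 called without wild-type replicate 1, falling to 1 on leaving out wild-type replicate 2, mutation 2 replicate 1 or any 1 library of mutation 1 or 3), and 0 rose and 5 fell with mutation 3. DNAJB1 rose by 1.69 with mutation 1 and fell by 0.52 with mutation 3, HSPA8 rose by 0.77 and fell by 0.59, and HSPH1 fell by 0.79 and 1.09. Of the 3 microRNA host transcripts, VMP1, which holds miR-21, rose by 0.43 with mutation 1 and 0.74 with mutation 3 and fell by 0.51 with mutation 2.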
